A study of Mus musculus with 24 samples.

Results

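The question here is whether docetaxel altered which RNAs of a mouse mammary tumour were pulled down by J2, a monoclonal antibody that recognises double-stranded RNA. The J2 library of each docetaxel tumour was set over the input library with the same replicate number, taken as the same tumour, and this ratio was compared with the same ratio in vehicle tumours. The members are therefore 12 of the 24 libraries of the series, chosen by their labels: 3 docetaxel and 3 vehicle tumours, each with a J2 and an input library. Every gene and every transposable element (TE) name of the deposited count tables was examined, first with all 12 libraries and then with the pair of docetaxel tumour 3 left out, which leaves 10.

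Docetaxel mice received 10 mg/kg of the drug into the peritoneum once a week, plus vehicle, as all single-drug groups of the series did. Vehicle mice received vehicle alone. All tumours were grafts of 2153L, labelled as a triple-negative mammary tumour from a genetically engineered mouse (GEMM TNBC) with p53 knockout, so both groups carry that genotype. Fragments were placed in the cleared mammary fat pad of female BALB/c hosts aged 6 to 8 weeks, and treatment began at a volume of about 100 mm3. The series also holds tumours given ORIN1001 (150 mg/kg daily by mouth), which blocks the RNA-cutting activity of IRE1α, and tumours given both drugs. These other tumours entered the fits to share the estimate of spread between libraries, and so also bear on which features passed the filter on low counts. The grafts of a group are labelled as biological replicates, yet all come from the same tumour line, and the labels call the material bulk tumour cells.

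Double-stranded RNA forms where a transcript folds back on itself, as in inverted repeats, small structured RNAs and microRNA hairpins, or where sense and antisense transcripts pair, as on mitochondrial DNA. In the cytosol it is read by sensors such as MDA5 and PKR, which switch on interferon signalling and halt translation, while ADAR edits it and makes it less visible to them. J2 binds long duplexes with little regard to sequence, so the ratio of J2 to input is a rough guide to duplex content. It also depends on the composition and scaling of both libraries, and the series holds no control pull-down. Docetaxel is a taxane: it binds β-tubulin, stabilises microtubules and arrests dividing cells in mitosis.

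MicroRNA hairpins are among the duplexes that a total RNA library can hold, and 2 of them come back in the values below. They are shown here with the mature arms in capitals, 5′ to 3′, from RefSeq on GRCm38.p6. Mir7-1 lies on the minus strand at chr13:58392779-58392886, within the span of Hnrnpk. Mir8091 lies on the plus strand at chr19:41588651-41588789, within the span of Lcor.
Mir7-1: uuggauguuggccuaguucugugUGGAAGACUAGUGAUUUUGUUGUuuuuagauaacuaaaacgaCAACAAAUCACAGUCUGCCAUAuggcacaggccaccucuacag
Mir8091: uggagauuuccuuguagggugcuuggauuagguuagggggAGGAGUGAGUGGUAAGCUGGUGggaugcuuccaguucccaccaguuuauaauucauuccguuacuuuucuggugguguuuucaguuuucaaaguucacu
The mature microRNAs, here with the seed (bases 2 to 8) in capitals, do not share a seed.
mmu-miR-7a-5p: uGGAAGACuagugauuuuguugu
mmu-miR-7a-1-3p: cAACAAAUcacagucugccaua
mmu-miR-8091: aGGAGUGAgugguaagcuggug

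Docetaxel tumour 3 stands apart from the other docetaxel and vehicle tumours. Its input held 3.27 M gene counts. Ribosomal RNA loci took 70.5% of these and mitochondrial genes 7.63%, whereas the other docetaxel inputs held at most 0.960% and 0.959%, and the vehicle inputs at most 1.05% and 1.22%. Its J2 library held 6.69 M gene counts, with 17.1% on ribosomal RNA loci. Gene counts ran up to 18.7 M in docetaxel J2 libraries and 63.3 M in docetaxel inputs, against 12.3 M to 14.9 M and 28.2 M to 34.8 M in vehicle tumours. Rank correlations between replicates ran from 0.781, between docetaxel inputs 1 and 3, to 0.985. Epithelial markers were present throughout: Epcam, a surface protein of epithelial cells, had 785, 903 and 94.7 CPM in docetaxel inputs and 848, 1210 and 965 CPM in vehicle inputs. CPM here is counts scaled to a common total of gene counts, ribosomal RNA loci included, which lowers the values of docetaxel input 3. The adipocyte marker list summed to 404 CPM in the input of docetaxel tumour 3, outside ribosomal RNA loci, against 58.1 and 60.1 CPM in the other docetaxel inputs and 60.2 to 74.6 CPM in vehicle inputs. Trp53 kept counts in all libraries, with 42.8, 51.8 and 9.47 CPM, loci included, in docetaxel inputs and 65.4, 61.7 and 54.4 CPM in vehicle inputs. With the library scaling of the fits these inputs were at 37.34, 43.96 and 36.08 CPM against 53.05, 53.77 and 44.99 CPM. A count over the whole gene does not show which exons are present. How far the depth and composition of this tumour set the values below was not tested, so they are given with and without it. In bulk tissue, fewer cells of a type and less RNA per cell cannot be told apart.

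No gene passed the test for a change of J2 enrichment between docetaxel and vehicle tumours. With all libraries, edgeR's quasi-likelihood test with Benjamini-Hochberg adjustment called 0 of 17338 genes (0% in either direction) at an adjusted p of 0.05, and 730 genes (4.21%) had an unadjusted p under that value, 2.2% on the higher and 2.01% on the lower side. With docetaxel tumour 3 left out it called 0 of 17890 genes (0%), and 666 (3.72%) had an unadjusted p under 0.05, 1.53% higher and 2.19% lower. The low-p genes of both fits shared 369 genes, all with the same sign, which is 50.5% of the first list and 55.4% of the second. The fits share every library but the pair of docetaxel tumour 3, so this overlap is largely built in and is not replication. On the same counts DESeq2 called 6 genes with all libraries and limma-voom 0. Those called by DESeq2 were Hist1h3f and Hist1h3e, both higher, and Cidec, Dok7, Mir3473d and CT010467.1, all lower, the last 3 named after their values were seen. It called 2 genes without docetaxel tumour 3, Hist1h3f higher and Terc lower, with an adjusted p of 0.00612 each. The fitted change, on the log2 scale, had a median standard error (SE) of 0.414 with all libraries and 0.333 without docetaxel tumour 3, beside a median absolute change of 0.327 and 0.254.

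**Figure D1:**
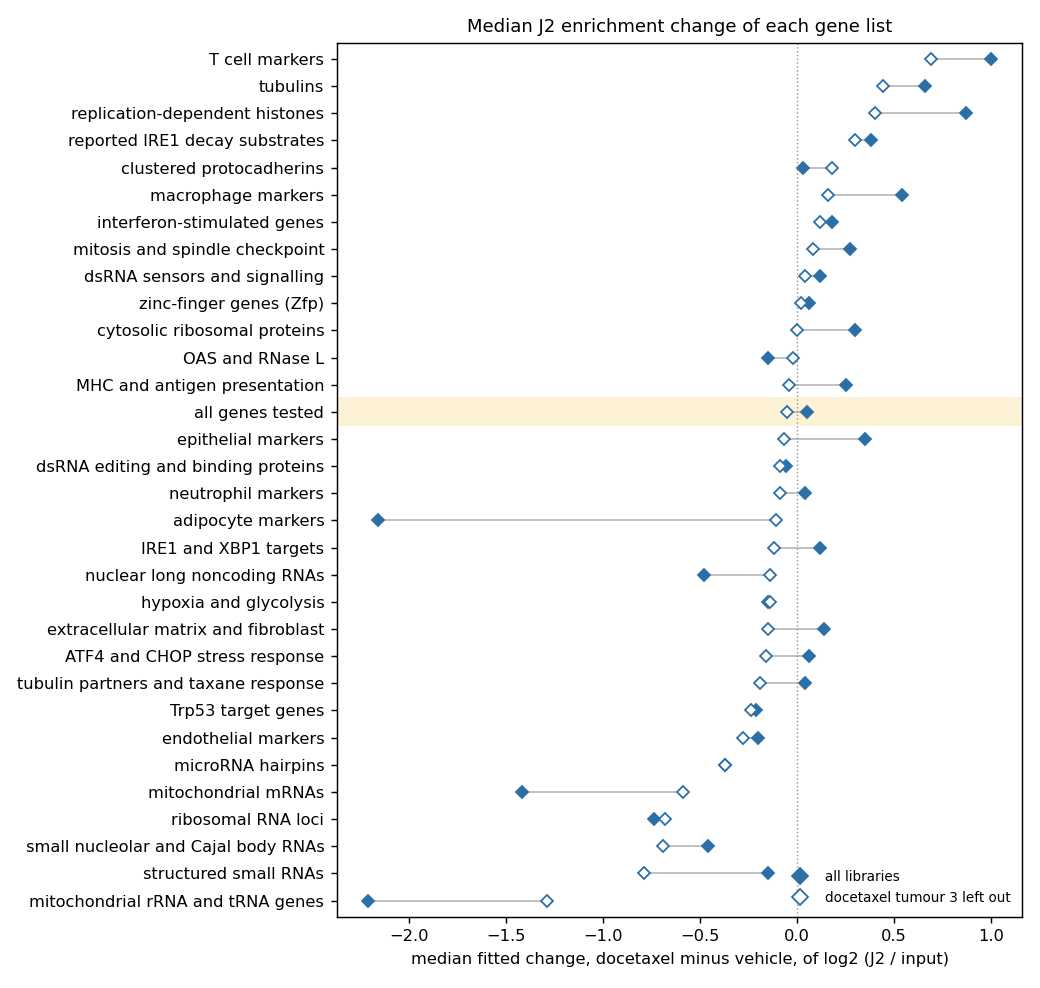
Median fitted change of log2 J2 over input, docetaxel minus vehicle (horizontal axis), for each gene list, with all libraries (filled) and with docetaxel tumour 3 left out (open). The shaded row is the median of all genes tested, 0.05 and -0.05. T cell markers, tubulins and histones lie to its right in both fits, while mitochondrial genes and small nucleolar RNAs lie to its left.

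Replication-dependent histone mRNAs, which are made in S phase and end in a stem-loop in place of a poly(A) tail, mostly had higher fitted enrichment under docetaxel. J2 enrichment was above every vehicle tumour in all docetaxel tumours for 32 of 62 histone genes tested, of 70 in the table, where 10.1% of all genes tested did so. Their median change was 0.87, beside 0.05 for all genes, and 57 of 62 lay above 0, beside 54.3% of all genes. Leaving out docetaxel tumour 3, the median was 0.40, beside -0.05, with 51 of 62 above 0 (44.5% of all genes) and 33 of 62 not overlapping on the higher side (11.4% of all genes). An unadjusted p under 0.05 was reached by 21 of the 62, all higher, and by 12 without docetaxel tumour 3, also all higher. No histone gene passed an adjusted p of 0.05 in edgeR in either fit.

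Among histone classes the H3 genes had the highest median change, 1.44, or 0.73 without docetaxel tumour 3. Their median log2 J2 over input was -1.94, -1.16 and 0.85 in docetaxel tumours 1, 2 and 3, against -2.49, -1.88 and -2.73 in vehicle tumours, and 8 of the 11 tested did not overlap on the higher side. H2B genes had 12 of 17 on that side and H2A genes 4 of 16, where all genes had 10.1%. The median of H2A genes was -2.48, -2.11 and 0.21 in docetaxel tumours against -2.37, -2.29 and -2.56 in vehicle tumours, so docetaxel tumour 1 lay among the vehicle tumours. H4 genes had a median change of 0.99, or 0.49 without docetaxel tumour 3, and linker H1 genes 0.70 or 0.19.

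Hist1h3f, which encodes histone H3, had J2 levels of 80.0, 118 and 108 CPM in docetaxel tumours and 23.97, 41.1 and 19.4 CPM in vehicle tumours, where CPM is from here on relative to the scaled library. Its input levels were 262, 221 and 69.8 CPM in docetaxel tumours and 166, 217 and 143 CPM in vehicle tumours. The docetaxel J2 levels all lay above the vehicle ones, while the inputs overlapped. Per tumour, log2 J2 over input was -1.71, -0.91 and 0.63 under docetaxel and -2.79, -2.40 and -2.89 under vehicle, so the transcript was depleted by J2 in every vehicle tumour and less so, or not, in docetaxel tumours. The fitted change was 1.95 ± 0.42 (SE), with an adjusted p of 0.914 by edgeR over all genes. The fit without docetaxel tumour 3 gave 1.32 ± 0.26, with an adjusted p of 0.717. Within the J2 libraries alone, docetaxel over vehicle was 1.83 ± 0.30 on the log2 scale without that tumour, and within the inputs 0.43 ± 0.23, with edgeR adjusted p of 0.106 and 0.423.

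Hist1h3e, another H3 gene, gave -1.22, -0.43 and 0.73 under docetaxel and -2.46, -1.59 and -2.46 under vehicle, a change of 1.80 ± 0.40, or 1.28 ± 0.30 without docetaxel tumour 3. Hist2h3b gave -2.11, -1.36 and -0.56 against -2.81, -2.60 and -3.17, and Hist1h3b gave -2.56, -1.14 and 1.27 against -3.39, -2.67 and -3.02. In each of these genes the lowest docetaxel tumour was tumour 1, and it still lay above the highest vehicle tumour. The tumour 3 value of Hist1h3b rests on an input count of 3. Histone genes are near-identical copies, so their counts may be shared out among them by the authors' counting.

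**Figure D2:**
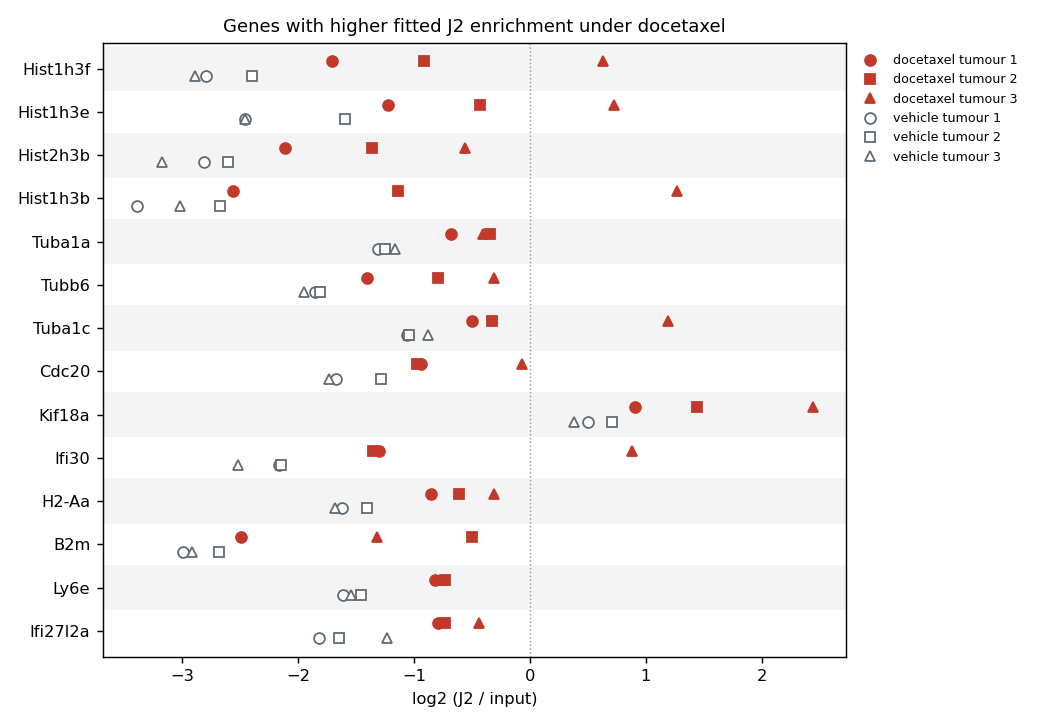
Log2 J2 over input (horizontal axis, from scaled CPM) of 14 genes, with docetaxel tumours as filled points above vehicle tumours as open points in each row. In every row shown the 3 docetaxel tumours lie to the right of the 3 vehicle tumours. For Hist1h3f the docetaxel tumours sit at -1.71, -0.91 and 0.63, and the vehicle tumours between -2.89 and -2.40.

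Tubulin mRNAs encode the subunits of microtubules, the target of docetaxel. All 15 tubulin genes tested, of 20 in the table, had a fitted change above 0, with a median of 0.66 and a range of 0.08 to 1.06. Of these, 9 did not overlap on the higher side (10.1% of all genes) and 5 had an unadjusted p under 0.05 (2.2% of all genes on that side), and none passed the adjusted threshold. In the fit without docetaxel tumour 3 all 16 tested lay above 0, with a median of 0.44 and 10 of 16 not overlapping, beside 44.5% and 11.4% of all genes.

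Tuba1a, an α-tubulin, gave log2 J2 over input of -0.68, -0.34 and -0.40 under docetaxel against -1.31, -1.25 and -1.16 under vehicle. Tumour 3 lay with the other docetaxel tumours here, and the groups did not overlap. The change was 0.76 ± 0.25, or 0.67 ± 0.24 without it, with adjusted p of 0.914 and 1.0. Its J2 levels were 96.4, 121 and 31.7 CPM under docetaxel and 39.6, 68.2 and 32.1 CPM under vehicle. Tuba1c gave -0.50, -0.33 and 1.19 against -1.06, -1.04 and -0.88. The β-tubulin Tubb6 gave -1.40, -0.79 and -0.31 against -1.85, -1.81 and -1.95, a change of 1.00 ± 0.35, or 0.72 ± 0.32. Apart from Tuba1c in docetaxel tumour 3, all these ratios lay below 0, so the mRNAs were under-represented in the J2 libraries of both groups, and less so under docetaxel.

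Partners of tubulin and genes tied to taxane response did not share this pattern. Their median change was 0.04, or -0.19 without docetaxel tumour 3. With all libraries 0 of 15 did not overlap, beside 10.1% of all genes on the higher and 5.65% on the lower side. Without that tumour 12 of 15 lay below 0 and 4 did not overlap on the lower side, beside 55.5% and 17.7% of all genes. Genes of mitosis and the spindle checkpoint had a median of 0.27, with 25 of 32 above 0 and 10 of 32 not overlapping on the higher side, beside 54.3% and 10.1% of all genes. The median was 0.08 and 6 of 32 did not overlap without docetaxel tumour 3, beside 11.4% of all genes. Cdc20, an activator of the anaphase-promoting complex, gave -0.94, -0.97 and -0.07 under docetaxel against -1.67, -1.28 and -1.73 under vehicle, a change of 0.83 ± 0.32, or 0.54 ± 0.26. Kif18a, a kinesin that trims spindle microtubules, gave 0.91, 1.44 and 2.44 against 0.50, 0.71 and 0.38, though the input of docetaxel tumour 3 held only 3 counts of it. Bub3, a checkpoint protein, gave -0.60, -0.65 and 0.98 against -0.98, -1.07 and -0.85, and its change of 0.72 ± 0.33 was 0.28 ± 0.21 without docetaxel tumour 3.

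Most mitochondrial transcripts had lower fitted enrichment under docetaxel, but by per-tumour list medians docetaxel tumours 1 and 2 were not both below vehicle. Mitochondrial DNA is transcribed from both strands, and the light strand carries Nd6, whose transcript can pair with RNA of the other strand. All 10 mitochondrial mRNAs tested, of 13 in the table, had a fitted change below 0, with a median of -1.42 and a range of -3.61 to -0.29. Of all genes, 45.7% lay below 0. On the lower side 4 of the 10 did not overlap, where 5.65% of all genes did. When docetaxel tumour 3 was left out the median was -0.59. Below 0 lay 7 of 10, and 5 did not overlap on the lower side, beside 55.5% and 17.7% of all genes. None passed the adjusted threshold. The median for mitochondrial rRNA and tRNA genes was -2.21 over 11 tested, or -1.29. Per tumour, the median log2 J2 over input of the mRNAs was -3.55, -2.60 and -6.52 under docetaxel against -3.25, -3.37 and -2.44 under vehicle. Docetaxel tumour 2 thus lay among the vehicle tumours. For the rRNA and tRNA genes it was 0.57, -1.40 and -7.79 against -1.02, -0.64 and -0.53, with docetaxel tumour 1 above all vehicle tumours.

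mt-Nd6 was the mRNA with the lowest change. Its J2 levels were 65.5, 52.5 and 264.6 CPM in docetaxel tumours and 238.9, 271.4 and 816.9 CPM in vehicle tumours. Log2 J2 over input was -0.21, -0.98 and -8.02 under docetaxel and 0.61, 1.24 and 2.52 under vehicle, below 0 in every docetaxel tumour and above 0 in every vehicle tumour. The fitted change was -3.61 ± 1.59 with all libraries and -2.11 ± 0.81 without docetaxel tumour 3, with adjusted p of 0.914 and 1.0. Without that tumour the J2 libraries alone gave -2.91 ± 0.89 and the inputs -0.65 ± 0.26. In docetaxel tumour 3 the input held 59094 counts of it and the J2 library 1926. mt-Nd4, a subunit of the same complex I, gave -4.92, -4.40 and -7.28 against -4.03, -3.88 and -2.87, whereas mt-Co1 overlapped, with -1.84, -0.54 and -6.42 against -1.40, -1.41 and -0.85, and its change was -0.03 ± 0.72 without docetaxel tumour 3. The tRNA gene mt-Ty gave 2.14, 0.62 and -8.83 against 2.66, 3.80 and 4.66, on J2 counts of 14, 5 and 4 against 22, 42 and 130.

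The share of all gene counts that fell on mitochondrial genes did not separate the groups. It was 0.157%, 0.293% and 2.10% in J2 libraries of docetaxel tumours and 0.265%, 0.250% and 0.464% in those of vehicle tumours. Log2 of the J2 share over the input share averaged -2.05 ± 0.49 under docetaxel and -1.87 ± 0.47 under vehicle (SD, n = 3 each), a difference of -0.18 with an exact two-sided permutation p of 0.6. With ribosomal RNA loci left out of the total it was -0.73, with an exact p of 0.3. Ribosomal RNA loci did separate. Their J2 share was 3.30%, 1.32% and 17.1% under docetaxel and 6.18%, 5.59% and 4.22% under vehicle, and log2 J2 share over input share was 2.14, 0.45 and -2.04 against 2.56, 2.71 and 2.36. The docetaxel tumours all lay below the vehicle tumours, by 2.36 on average, or by 1.24 without docetaxel tumour 3, and the exact permutation p of 0.1 is the smallest that either design allows. Both library types were depleted of ribosomal RNA by the kit, so these shares are of the RNA that escaped it.

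**Figure D3:**
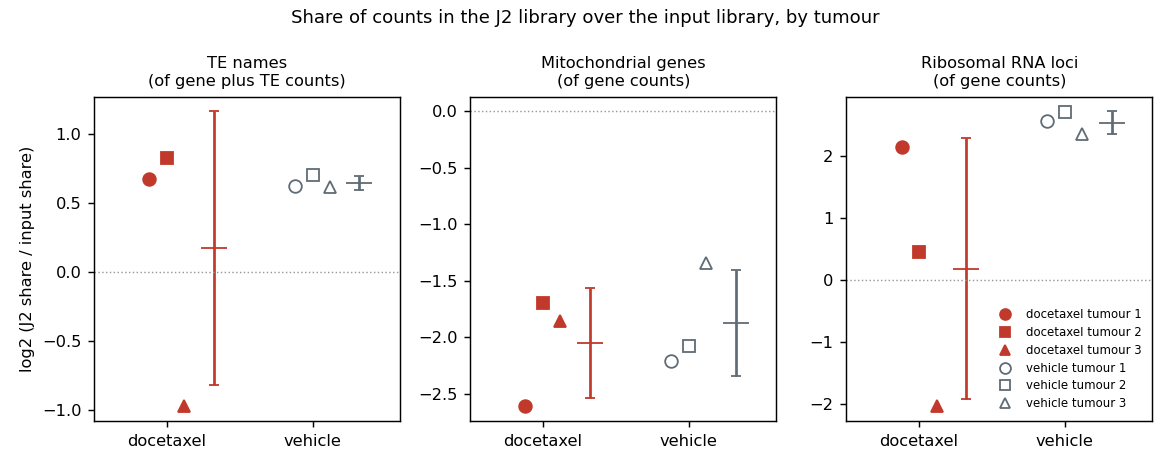
Log2 of the share of counts in the J2 library over the share in the input library (vertical axis) for TE names, mitochondrial genes and ribosomal RNA loci, with a point per tumour and bars for mean ± SD. Docetaxel tumours are filled and vehicle tumours open. Docetaxel tumour 3 is the lowest point for TE names, at -0.97, and for ribosomal RNA loci, at -2.04.

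Several small structured RNAs had lower ratios in docetaxel tumours 1 and 2 than in any vehicle tumour, as did 17.7% of all genes. This held for 8 of 35 small nucleolar and Cajal body RNAs, near the share of all genes, and for 5 of 14 other structured small RNAs. Those named below were picked from their lists by smallest p. Terc, the RNA template of telomerase (chr3:96414437-96414833), had J2 levels of 6.55, 2.99 and 177.6 CPM in docetaxel tumours and 15.5, 12.9 and 15.5 CPM in vehicle tumours, with inputs of 24.4, 26.4 and 14.02 CPM against 18.3, 15.1 and 25.9 CPM. Its log2 J2 over input was -1.90, -3.14 and 3.66 under docetaxel and -0.24, -0.23 and -0.74 under vehicle. Docetaxel tumours 1 and 2 lay below all vehicle tumours and tumour 3 above them. The change was -0.65 ± 1.07 with all libraries, and -2.17 ± 0.38 without docetaxel tumour 3, the smallest p of that fit, with an adjusted p of 0.537 by edgeR.

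Rn7sk, the 7SK RNA that holds back transcription elongation (chr9:78175302-78175633), gave -1.41, -2.17 and -1.20 under docetaxel against -0.11, -0.13 and -1.27 under vehicle. Vehicle tumour 3 thus lay among the docetaxel tumours. The change was -1.09 ± 0.41, or -1.35 ± 0.38 without docetaxel tumour 3, with adjusted p of 0.914 and 1.0. Repeat copies named 7SK in the TE table gave -1.54, -2.28 and -4.72 against -0.32, -0.38 and -1.32, and how reads were divided between this name and the gene is not given in the sources used here. Scarna2, a guide RNA of Cajal bodies, gave 0.11, -1.49 and 0.15 against 1.06, 0.83 and 1.38, with changes of -1.49 ± 0.49 and -1.83 ± 0.50. Snord17, a small nucleolar RNA, gave 1.51, 0.95 and -1.61 against 1.87, 1.87 and 1.72. Rprl3, a copy of the RNA of ribonuclease P, gave -4.88, -5.95 and -0.92 against -3.18, -3.74 and -3.49, so that docetaxel tumours 1 and 2 lay below and tumour 3 above the vehicle tumours.

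As a list, small nucleolar and Cajal body RNAs had a median change of -0.46 over 34 tested, with 25 below 0 (45.7% of all genes), and -0.69 over 35 without docetaxel tumour 3, with 28 below 0 (55.5% of all genes). Leaving out docetaxel tumour 2 brought the list's median to -0.03. Per tumour, the list's median log2 J2 over input was 0.14, -0.67 and 0.38 under docetaxel against -0.10, -0.04 and 0.18 under vehicle. Docetaxel tumour 1 thus lay among the vehicle tumours and docetaxel tumour 3 above them. The 14 other structured small RNAs had a median of -0.15, which was -0.79 without docetaxel tumour 3 and turned to 0.22 and 0.73 without docetaxel tumour 1 or 2. It was 0.14 in DESeq2 with all libraries.

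MicroRNA hairpins had a median change of -0.37 in both fits, over 73 and 85 tested of 1190 in the table. The median hides opposite members, and Mir7-1 lay on the higher side. Its J2 counts were 32, 33 and 8 in docetaxel tumours and 13, 17 and 7 in vehicle tumours, with input counts of 7, 15 and 0 and of 16, 29 and 15. Log2 J2 over input was 2.00, 2.61 and 3.73 under docetaxel against 0.88, 0.63 and 0.39 under vehicle, all docetaxel tumours lying above. The change was 1.98 ± 0.59, or 1.91 ± 0.60 without docetaxel tumour 3, with adjusted p of 0.914 and 1.0. Hnrnpk, whose span holds the hairpin and which encodes an RNA-binding protein, had a change of 0.06 ± 0.28, or -0.17 ± 0.26. Mir8091 gave 1.07, 1.12 and 5.96 against 1.97, 1.64 and 1.81, where the last docetaxel value has an input count of 0, and its change was -0.77 ± 0.33 without that tumour. The corresponding value of Lcor, a transcriptional corepressor, was -0.08 ± 0.39. Total RNA libraries hold few molecules as short as a mature microRNA, so such counts describe RNA over the hairpin's span.

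Nuclear long noncoding RNAs had a median change of -0.48, or -0.14 without docetaxel tumour 3. Malat1, a nuclear speckle RNA, gave -0.27, 0.57 and 1.12 under docetaxel against 0.58, 0.64 and 0.54 under vehicle, and its changes were -0.11 ± 0.45 and -0.49 ± 0.42. Neat1, the scaffold of paraspeckles, gave 0.56, 0.49 and 0.22 against 1.56, 1.25 and 0.33, and vehicle tumour 3 lay among the docetaxel tumours. Firre, an X-linked RNA of nuclear organisation, gave 0.84, 0.45 and -0.18 against 1.18, 1.24 and 0.51. Of these RNAs none had groups apart with all libraries.

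**Figure D4:**
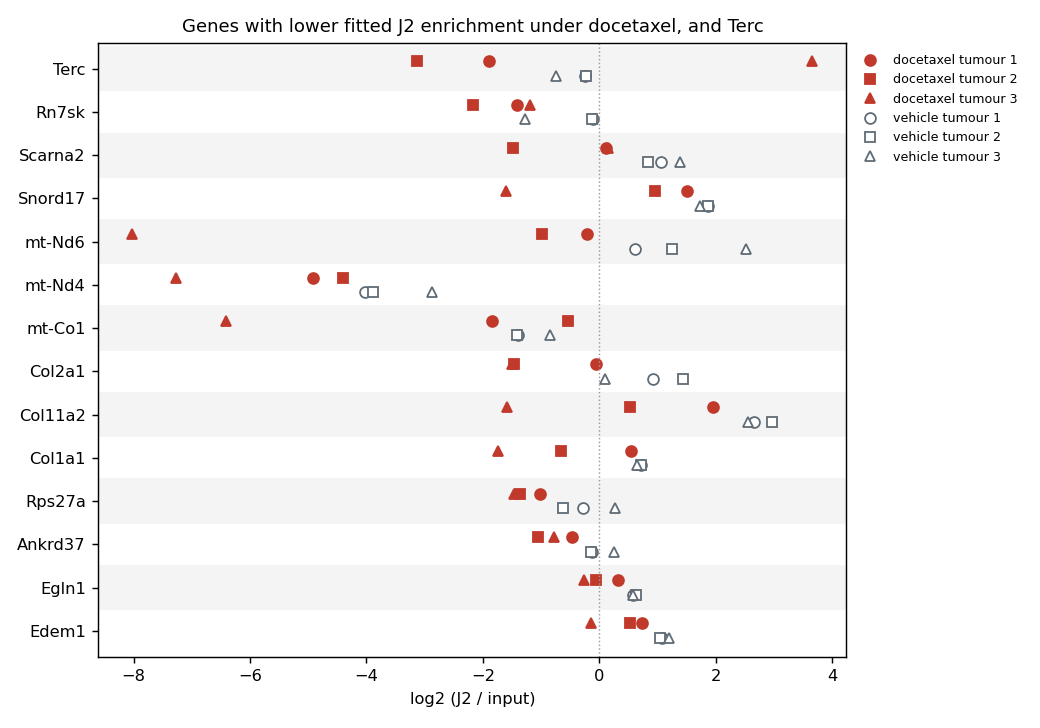
Log2 J2 over input (horizontal axis) of 14 genes, drawn as in the plot of genes with higher fitted enrichment. Docetaxel tumours 1 and 2 lie left of the vehicle tumours for Terc, at -1.90 and -3.14, while docetaxel tumour 3 lies at 3.66. For mt-Nd6, Col2a1 and Rps27a all docetaxel tumours lie left of all vehicle tumours.

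Transcripts of the machinery that reads double-stranded RNA had small median changes of J2 enrichment. The list of sensors and their signalling had a median change of 0.12, or 0.04 without docetaxel tumour 3, over 20 genes that ranged from -0.77 to 0.61. Proteins that edit or bind double-stranded RNA had -0.06 or -0.09 over 19 genes, and the OAS and RNase L genes -0.15 or -0.02 over 9. None of these genes had an unadjusted p under 0.05 in either fit. Of the 19 that edit or bind, 8 did not overlap on the lower side and 2 on the higher without docetaxel tumour 3. All genes had 17.7% and 11.4% there. With all libraries it was 2 of the 19 on each side. In the fit without that tumour, sensors and signalling had 0 of 20 lower and 3 higher. Ifih1, which encodes MDA5, gave -0.38, 0.02 and -1.18 under docetaxel against -0.57, -0.41 and -0.65 under vehicle, a change of 0.08 ± 0.32. Eif2ak2, which encodes PKR, gave -0.80, -0.54 and -0.32 against -0.71, -0.78 and -0.90, a change of 0.22 ± 0.26. Adar gave -0.06, -0.23 and -0.25 against 0.23, 0.20 and -0.13, a change of -0.28 ± 0.23. The groups overlapped for each of these genes with all libraries. When docetaxel tumour 3 was left out, both remaining docetaxel tumours lay above the vehicle tumours for Ifih1 (0.31 ± 0.27) and below them for Adar (-0.31 ± 0.22), and neither passed the test. These values describe the transcripts, not the activity of the proteins.

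Interferon-stimulated genes had a median of 0.18, or 0.12, over 41 tested, with 29 above 0, or 26, beside 54.3% and 44.5% of all genes. On the higher side 2 and 3 had an unadjusted p under 0.05, beside 2.2% and 1.53% of all genes. Ifi27l2a gave -0.79, -0.73 and -0.44 under docetaxel against -1.82, -1.65 and -1.23 under vehicle, a change of 0.88 ± 0.25, or 0.76 ± 0.23. Ly6e, a surface protein induced by interferon, gave -0.82, -0.73 and -0.76 against -1.61, -1.46 and -1.54, with a change of 0.77 ± 0.23. Its input levels overlapped widely, at 60.8, 210.4 and 41.9 CPM against 343.8, 89.7 and 73.4 CPM, while the ratios of each group lay close together. Rtp4, another interferon-induced gene, gave -1.40, -0.98 and -0.91 against -1.83, -1.73 and -1.93. Adjusted p for these genes was 0.914 with all libraries and 1.0 without docetaxel tumour 3.

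Antigen presentation genes had a median of 0.25 over 18, or -0.04 without docetaxel tumour 3, and 6 of 18 did not overlap on the higher side with all libraries, beside 10.1% of all genes. B2m, the light chain of MHC class I, gave -2.49, -0.50 and -1.32 under docetaxel against -2.99, -2.68 and -2.91 under vehicle, a change of 1.43 ± 0.54, or 1.31 ± 0.57. Its J2 level in docetaxel tumour 2, 559.5 CPM, stood far above the other docetaxel tumours, with 88.5 and 69.02 CPM, and the vehicle tumours, with 102, 94.1 and 60.2 CPM. H2-Aa, a chain of MHC class II, gave -0.85, -0.61 and -0.31 against -1.62, -1.40 and -1.68. Ifi30, a thiol reductase of antigen processing, gave -1.30, -1.35 and 0.88 against -2.16, -2.15 and -2.52, with changes of 1.28 ± 0.38 and 0.89 ± 0.24 that did not pass the adjusted threshold. The groups of all 3 genes were apart.

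Markers of other cells in the tumour were followed because they share J2 libraries with the carcinoma cells. All 13 T cell markers had a change above 0, with a median of 1.00, or 11 of 13 and 0.69 without docetaxel tumour 3, beside 54.3% and 44.5% of all genes. They rest on few counts. Cd8b1, of cytotoxic T cells, had J2 counts of 12, 8 and 4 under docetaxel and 4, 0 and 1 under vehicle, on inputs of 8, 51 and 2 and of 25, 27 and 26. Zap70, a kinase of the T cell receptor, gave log2 J2 over input of 0.98, 0.74 and 0.36 against 0.16, -0.63 and -0.35, on J2 counts of 15, 17 and 11 against 11, 4 and 8. Cd3e, part of that receptor, had a change of 1.00 ± 0.63, or 0.69 ± 0.55. The list summed to 10.6, 13.2 and 25.4 CPM in docetaxel J2 libraries and 12.8, 10.4 and 12.6 CPM in vehicle ones, outside ribosomal RNA loci, and to 15.0, 19.7 and 10.4 CPM in docetaxel inputs and 23.4, 22.4 and 21.3 CPM in vehicle inputs. In the input of docetaxel tumour 3, 7 of the 13 markers, Cd3e among them, stood at 0 counts. The part of these low counts in the list's median was not tested.

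Macrophage markers lay above 0 in 10 of 10 with all libraries and in 7 of 10 without docetaxel tumour 3, with medians of 0.54 and 0.16. Cd68, a lysosomal protein of macrophages, gave -1.61, -1.21 and 4.68 under docetaxel, the last on an input count of 0, against -2.65, -2.64 and -2.45 under vehicle. Its change was 1.43 ± 0.55, or 1.16 ± 0.42. C1qc, a complement subunit, gave -2.39, -1.92 and -0.50 against -2.62, -3.02 and -3.19. The macrophage list summed to 366, 382 and 486 CPM in docetaxel J2 libraries and 302, 361 and 347 CPM in vehicle ones, outside ribosomal RNA loci. Adipocyte markers had a median of -2.16 that became -0.11 without docetaxel tumour 3, whose input held the high adipocyte sum given above. Cidec, a lipid droplet protein, gave 0.00, -0.38 and -6.57 against 0.97, -0.75 and -0.53, with counts of 41 in the input and 3 in the J2 library of docetaxel tumour 3. Tfap2b, which had the smallest p with all libraries (-6.90 ± 0.91, adjusted p of 0.373), likewise had 26 input and 2 J2 counts in that tumour and -2.34 ± 2.07 without it, and vehicle tumour 1 held 994 of its input counts.

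Genes of the unfolded protein response, the pathway in which IRE1α acts, had no common direction. IRE1 and XBP1 target genes had a median of 0.12, or -0.12 without docetaxel tumour 3, over 36 tested. In the latter fit 23 lay below 0 (55.5% of all genes), and 8 did not overlap on the lower and 3 on the higher side. Genes of the ATF4 and CHOP stress response had a median of 0.06, or -0.16, over 14. Of these, 6 did not overlap on the lower and 1 on the higher side in that fit. All genes had 17.7% and 11.4% on those sides. Ern1, which encodes IRE1α, gave 0.69, 0.60 and 0.66 under docetaxel against 0.78, 0.49 and 0.27 under vehicle, a change of 0.14 ± 0.22. Xbp1, its splicing substrate, gave 1.22, 1.10 and -1.40 against 0.75, 0.75 and 0.68, a change of -0.32 ± 0.51 that was 0.37 ± 0.25 without docetaxel tumour 3. Edem1, a factor of protein disposal from the endoplasmic reticulum, gave 0.73, 0.52 and -0.15 against 1.08, 1.04 and 1.19, and Dnajc3, a chaperone that inhibits PKR, gave 0.29, 0.60 and -0.33 against 0.90, 0.72 and 0.99. Both lay lower in every docetaxel tumour, with changes of -0.73 ± 0.29 and -0.67 ± 0.30. Sdf2l1, of a chaperone complex of the endoplasmic reticulum, lay on the other side, with -1.85, -1.98 and -0.67 against -2.32, -2.46 and -2.78. Reported substrates of IRE1 decay had a median of 0.38, or 0.30, over 10, and Hgsnat among them, a lysosomal acetyltransferase, gave -0.31, 0.09 and 0.65 against -0.56, -0.51 and -1.04.

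The fibrillar collagens named here had lower ratios under docetaxel. Col2a1, the collagen of cartilage, had J2 levels of 26.6, 21.6 and 80.7 CPM in docetaxel tumours and 228.7, 167.6 and 43.2 CPM in vehicle tumours, with inputs of 27.5, 59.9 and 228.8 CPM against 121, 61.8 and 40.4 CPM. Log2 J2 over input was -0.05, -1.47 and -1.50 against 0.92, 1.44 and 0.10, again with opposite signs in the groups. The change was -1.84 ± 0.43, or -1.66 ± 0.41 without docetaxel tumour 3, with adjusted p of 0.914 and 1.0. Col11a2, its partner in cartilage fibrils, gave 1.95, 0.52 and -1.59 against 2.65, 2.96 and 2.55, and Col1a1 gave 0.54, -0.66 and -1.74 against 0.71, 0.72 and 0.64. Col3a1 gave -0.44, -1.06 and -1.62 against 0.07, 0.16 and -0.47, with tumours that overlapped narrowly. The whole matrix list of 15 had a median of 0.14, or -0.15, so this holds for the collagens named and not for the list.

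Hypoxia and glycolysis genes had a median of -0.15, or -0.14, with 14 and 15 of 21 below 0, beside 45.7% and 55.5% of all genes. Ankrd37, induced by HIF-1, gave -0.47, -1.05 and -0.78 under docetaxel against -0.12, -0.15 and 0.25 under vehicle, a change of -0.76 ± 0.29. Egln1, the oxygen sensor that marks HIF-1α for destruction, gave 0.32, -0.05 and -0.26 against 0.57, 0.63 and 0.57. Among ribosomal protein mRNAs, Rps27a gave -1.02, -1.36 and -1.47 against -0.28, -0.63 and 0.26, a change of -1.06 ± 0.34, or -1.03 ± 0.35 without docetaxel tumour 3. That list's median was 0.30, or 0.00, over 81.

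Transposable elements are a main source of duplex RNA, since inverted copies within a transcript can fold on each other. Their share of all counts was higher in J2 than in input in 2 of 3 docetaxel tumours and in 3 of 3 vehicle tumours. It was 17.7%, 18.9% and 20.02% in docetaxel J2 libraries over 11.1%, 10.7% and 39.2% in their inputs, and 20.9%, 17.9% and 23.6% over 13.6%, 10.98% and 15.4% in vehicle tumours. Log2 of the ratio was 0.67, 0.82 and -0.97 under docetaxel against 0.62, 0.70 and 0.61 under vehicle. The difference was -0.47, with an exact two-sided permutation p of 0.9, and 0.10 without docetaxel tumour 3, with an exact p of 0.3. With ribosomal RNA loci left out of the total it was -0.71, with an exact p of 0.9. The smallest p either design allows is 0.1.

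Of 1046 TE names tested with all libraries, 0 passed an adjusted p of 0.05 (0% in either direction), and 6 (0.574%) had an unadjusted p under 0.05, all lower. Tumours did not overlap for 8.13% of names on the lower and 0.0956% on the higher side. The fitted change lay above 0 for 3.15% and below 0 for 96.8% of names, with a median of -1.24 and a median SE of 1.46. Docetaxel tumour 3 stood apart here: the median of all names was 1.10, 1.27 and -6.12 in docetaxel tumours against 0.97, 1.10 and 0.82 in vehicle tumours. When TE names were scaled among themselves instead of with the genes, the median change was -0.10. It was 0.13 without docetaxel tumour 3, with 63.3% of 1052 names above 0 and 41 (3.9%) at an unadjusted p under 0.05, 2.19% higher and 1.71% lower. Scaled among themselves, the names had a median of 0.04 in that fit.

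Families differed in how far docetaxel tumour 3 departed. B1, B4, ID and MIR SINEs, short elements copied by the machinery of LINEs, had medians of 1.09, 1.18 and -6.37 under docetaxel against 1.01, 1.06 and 0.97 under vehicle. DNA transposons gave 1.25, 1.42 and -6.70 against 1.12, 1.31 and 0.90, and the endogenous retroviruses of the IAP, ETn and MMERVK group 0.57, 0.90 and -5.25 against 0.72, 0.61 and 0.64. Young L1Md LINEs, which include the copies still able to move, stood at 1.27, 1.20 and 0.70 against 1.30, 1.24 and 1.36 as medians over names. B2 and B3 SINEs stood at 1.22, 1.10 and -1.03 against 0.94, 1.07 and 1.19. With TE names scaled among themselves, the changes of L1Md and of B2 and B3 were 1.12 and 1.05, where the joint scaling gave -0.25 and -0.68, and older L1 and Lx LINEs were at 0.11 where it gave -1.05.

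Shares summed over a whole family differ from the medians over names in weighting and in scaling. Abundant names weigh most in them, and they are shares of raw counts without the library scaling behind CPM. In docetaxel tumour 3, B2_Mm2 had 204916 J2 and 57270 input counts, but 23510 and 48060 scaled CPM. How much each difference contributes was not tested. By summed share, docetaxel tumour 3 lay above the other tumours for young L1Md LINEs. Young L1Md LINEs took 4.88% of gene and TE counts in its J2 library and 0.465% in its input. Log2 of their J2 share over input share was 0.97, 0.84 and 3.39 under docetaxel against 0.92, 0.91 and 0.96 under vehicle, while by the median over names tumour 3 lay below the vehicle tumours. For B2 and B3 SINEs the ratio was 0.99, 1.01 and 0.17 against 0.60, 0.72 and 0.76, and for older L1 and Lx LINEs 0.64, 0.92 and -0.19 against 0.42, 0.55 and 0.26. B1, B4, ID and MIR SINEs stayed low in tumour 3 by this measure too, with 0.86, 0.95 and -2.61 against 0.68, 0.78 and 0.65.

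**Figure D5:**
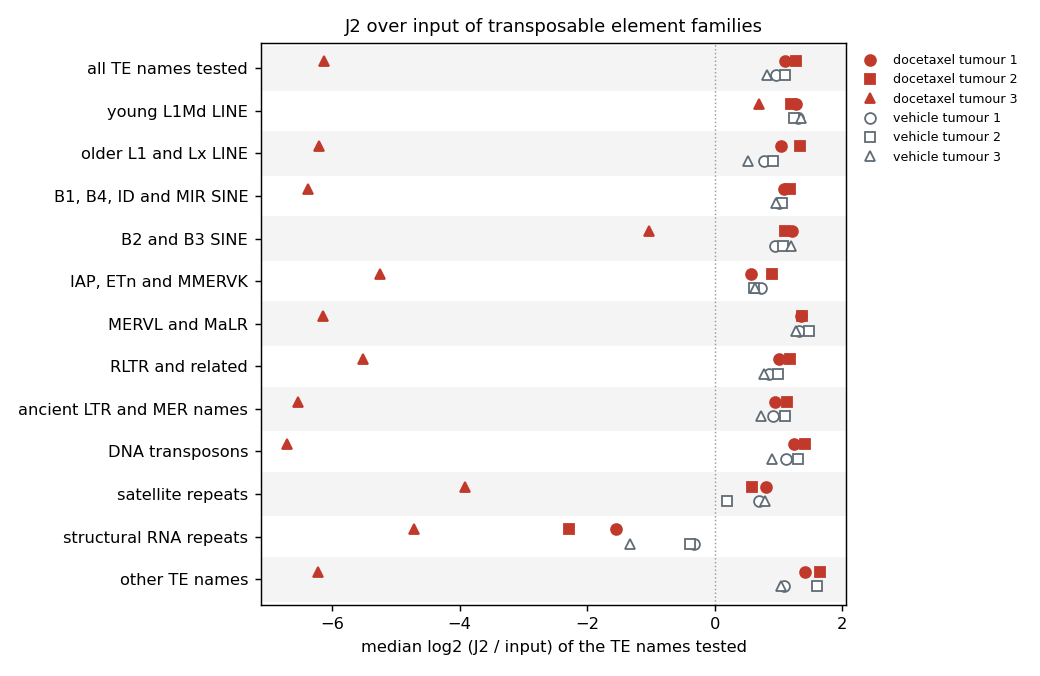
Median log2 J2 over input (horizontal axis) of the TE names tested in each family, with docetaxel tumours as filled points above vehicle tumours as open points. Docetaxel tumours 1 and 2 lie close to the vehicle tumours in most families. They lie lower for structural RNA repeats, a family of the name 7SK alone. For older L1 and Lx LINEs they lie at 1.04 and 1.34, above the vehicle tumours at 0.78, 0.92 and 0.52. Docetaxel tumour 3 lies far to the left except for young L1Md LINEs, at 0.70, and B2 and B3 SINEs, at -1.03. These are medians over names of scaled CPM. By summed shares of raw counts, without that scaling, the same tumour is at 3.39 and 0.17 for these families.

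By medians over names, docetaxel tumours 1 and 2 lay close to vehicle in most families. By summed counts, docetaxel tumour 2 stood above vehicle for the IAP, ETn and MMERVK group, at 1.28 against 0.42, 0.47 and 0.42, and for satellites, at 0.19 against -0.29, -0.38 and -0.42, while docetaxel tumour 1 was at 0.29 and -0.27. With docetaxel tumour 3 left out, family medians of the change ran from -0.20 for young L1Md to 0.33 for older L1 and Lx LINEs, outside 7SK at -1.31. Older L1 and Lx LINEs had medians of 1.01 and 1.31 in docetaxel tumours 1 and 2 against 0.82, 0.91 and 0.61 in vehicle tumours. Of their 150 names, 128 had a change above 0 and 59 did not overlap on the higher side, beside 63.3% and 23.4% of all TE names. MERVL and MaLR elements, retroviral relatives, had 68 of 109 below 0 and 28 not overlapping on the lower side, beside 36.7% and 11.6%. No name of either family passed the adjusted threshold.

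RMER17B2, a long terminal repeat in the RLTR and related family, was the 1 TE name of 1052 (0.0951%) that passed without docetaxel tumour 3. Its log2 J2 over input was -0.21 and -0.11 in docetaxel tumours 1 and 2 against -1.61, -1.26 and -1.85 in vehicle tumours, and -7.43 in docetaxel tumour 3. J2 levels were 13.9 and 34.9 CPM in docetaxel tumours 1 and 2 and 13.5, 12.8 and 15.0 CPM in vehicle tumours, while inputs were 16.0 and 37.6 CPM and 41.1, 30.8 and 54.2 CPM. The change was 1.35 ± 0.24 with an adjusted p of 0.0352 by edgeR over TE names, with a higher ratio in 2 of 2 docetaxel tumours. In tumour 1 the J2 level lay within the vehicle range and the input below it. DESeq2 called it too, with an adjusted p of 3.15e-05. With all libraries it was -0.02 ± 1.32, with an adjusted p of 0.99, and it no longer passed when any further tumour was left out or when TE names were scaled among themselves.

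Other TE names stood lower with groups apart. IAPLTR2_Mm, a repeat of IAP retroviruses, gave 2.14, 1.79 and -1.26 under docetaxel against 2.67, 2.77 and 2.95 under vehicle, with changes of -1.82 ± 0.70 and -0.91 ± 0.28. FordPrefect, a DNA transposon, gave 2.52, 1.20 and -4.25 against 3.36, 3.82 and 2.91, with -3.01 ± 1.42 and -1.57 ± 0.55. RLTR10-int, the inner part of a retrovirus, gave 1.15, 0.69 and -5.30 against 1.67, 1.77 and 1.41. Adjusted p for these was 0.693 with all libraries and 0.998 without docetaxel tumour 3. B1_Mm, an abundant SINE, gave 0.93, 1.00 and -3.14 against 0.92, 0.96 and 1.28, and B3 gave 1.32, 1.52 and -5.20 against 0.96, 1.11 and 0.92. Their changes were -0.16 ± 0.35 and 0.35 ± 0.37 without docetaxel tumour 3, both within their SE.

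The J2 and input libraries were also compared between treatments on their own. In J2 libraries 0 of 15869 genes (0%) passed, with 1079 (6.8%) at an unadjusted p under 0.05, 4.13% higher and 2.67% lower. In inputs 0 of 17768 (0%) passed, with 1857 (10.5%) at that level, 4.87% higher and 5.58% lower. DESeq2 called 66 and 131. For histones the median docetaxel-over-vehicle difference was 1.03 on the log2 scale in J2 libraries and 0.22 in inputs, and 1.12 and 0.51 without docetaxel tumour 3. For tubulins it was 0.41 and -0.16, and 0.56 and 0.09 without docetaxel tumour 3. For mitochondrial mRNAs it was -0.19 and 2.39 with docetaxel tumour 3, and -0.29 and -0.33 without it. All genes tested had medians of 0.05 and -0.07, and of -0.00 and -0.03 without docetaxel tumour 3.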

How the data were processed

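The values are counts, deposited by the authors as whole numbers per gene (53465 rows, 53274 matched to a symbol, 50604 by exact version) and per TE name (1146 rows). The submitters' processing notes list featureCounts 2.0.3 beside STAR 2.7.3a and fastp 0.23.2, and name mm10 as the build, without saying what each did. Strandedness of counting and the treatment of multi-mapping reads were not given in the sources used here, so counts of gene copies, overlapping genes, antisense pairs and TE names are uncertain. Per the labels' protocols, libraries were stranded total RNA with ribosomal RNA depletion. Depth, given in the report, bears on the precision. The SE of a fitted change comes from the quasi-likelihood fit, so it also takes in the spread between tumours.

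A single model over the 24 libraries was fitted with edgeR 4.0.16 in R 4.3.3: TMM scaling, filterByExpr (minimum count 10, total 15), the tumour as a block, 1 J2 coefficient per treatment, a quasi-likelihood F test and Benjamini-Hochberg adjustment, with a threshold of 0.05. All p-values are two-sided. TE names were fitted in a joint table with the genes and adjusted over TE names alone. Per-tumour ratios are differences of log2 CPM of TMM-scaled libraries with a prior count of 2, so a count of 0 has a value. The SE is the fitted change divided by the root of F. J2 and input libraries were also fitted apart. Count shares were compared by exact permutation. Limma 3.58.1, DESeq2 1.42.0 and the alternatives below were run, and the fit was tested on simulated counts without tumour effects. With all libraries it recovered 1.05% of simulated log2 changes of 1 and 45.2% of those of 2. Without docetaxel tumour 3 it recovered 23.7% and 65.7%. Most real changes of 1 on the log2 scale would thus be missed under such settings.

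J2 and input libraries with the same treatment and replicate number in the labels were taken as a tumour. After removal of group means, both libraries of a tumour correlated above 0.1 in 10 of 12 tumours. No 2 replicates looked like 1 library (smallest chi-square per degree of freedom 23.1).

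The members, the 33 gene lists and the 12 TE families were chosen with earlier results of these data known, and TE prefixes were completed after the names were seen. Genes were named by a rule: those passing the threshold with groups apart and an average log2 CPM of at least 0, else the 6 smallest p-values (TE names 4), up to 3 members of each list and 2 TE names of each family by smallest p, and a fixed set of 10 genes. Symbols of gene models were left out of all but the lists. Coordinates are 1-based on GRCm38.p6 (RefSeq). Samples labelled as replicates are separate grafts of the same tumour line, so p-values measure the spread between these grafts.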

Additional observations from a re-analysis of the deposited data

Results flagged for a closer look

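For mt-Nd6 every docetaxel tumour was depleted by J2 relative to its input and every vehicle tumour was enriched, with a fitted change of -3.61 on the log2 scale, or -2.11 without docetaxel tumour 3. The difference did not pass the test across all genes in either fit. Col2a1 had the same arrangement of signs, with a fitted change of -1.84, or -1.66 without docetaxel tumour 3, and did not pass either. RMER17B2 passed the test of the difference without docetaxel tumour 3, with a change of 1.35, and was at -0.02 with all libraries. The groups held too few tumours for a check of single outlying values.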

How the results depend on the processing

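Counts of called features moved with the tool and the filter. Called genes numbered 6 in DESeq2 (2 without docetaxel tumour 3) and 141 with no filter on low counts (19 without that tumour). They numbered 0 to 10 when a tumour was left out (10 without docetaxel 1, 0 to 1 where docetaxel 3 was out as well). For TE names, 504 were called, all lower, with no replicate block, and 0 to 1 when a tumour was left out. Without docetaxel tumour 3 the TE calls were 4 with no filter (RMER17B2, FordPrefect, 7SK and RLTR13G, the last named after its values were seen) and 12 (6 higher, 6 lower) with docetaxel and vehicle libraries only. They were 0 with TE names scaled among themselves, an alternative chosen after seeing the data, 0 with no replicate block, and 0 without any further tumour. Where that leaves 1 docetaxel tumour, it is assumed to vary like the others. J2 libraries gave 66 in DESeq2, 266 with no filter and 0 to 2 when a tumour was left out (2 without vehicle 2, 1 without vehicle 3), and inputs 131 in DESeq2. The tumour is the block of the J2 comparison, and replicate numbers did not pair tumours across treatments: same-numbered deviations correlated above 0.1 in 1 of 6 pairs. A replicate block in the J2 and input comparisons called 0 genes in each. Over the left-out tumours the TE share difference ran from -0.79 to 0.10 (without docetaxel 3) and the mitochondrial one from -0.36 to 0.10 (0.10 without docetaxel 1, 0.09 without vehicle 3). With ribosomal RNA loci left out of the total these were -0.71 and -0.73. With docetaxel and vehicle libraries only, 16492 genes and 1030 TE names were tested. Of these, 593 and 4 had an unadjusted p under 0.05 by edgeR. Without docetaxel tumour 3 the same setting gave 2014 of 17030 genes and 249 of 1043 TE names. The fit of all treatments without that tumour gave 666 and 41.

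Of 78 fitted changes of single genes and TE names, 60 kept their sign in every alternative. With no replicate block, Terc was at 1.88, Rprl3 at 1.71 and Malat1 at 0.08. With TE names scaled among themselves, values above 0 were 1.06 for RMER17B2, 0.02 for IAPLTR2_Mm, 0.77 for L1M3c, 0.27 for LTRIS4, 0.47 for L1Md_Gf, 0.82 for L1Md_F, 0.54 for B1_Mm, 0.49 for B1_Mus2, 1.07 for B2_Mm2 and 0.26 for B3. RMER17B2 was at 0.48 in limma-voom. Over the left-out tumours the ranges were -2.17 to 0.76 for Terc, -2.10 to 0.73 for Rprl3, -0.49 to 0.20 for Malat1, -0.24 to 0.31 for Ifih1, -0.00 to 0.22 for Ern1, -0.86 to 0.37 for Xbp1, -3.49 to 0.07 for Plin1, -1.63 to 1.35 for RMER17B2, -2.44 to 1.44 for L1M3c, -3.9 to 0.31 for B4A and -2.94 to 0.35 for B3. List medians moved by more than their spread in 21 of 620 recomputed values. The cause of these differences was not tested. The input of docetaxel tumour 3 held 3.27 M gene counts, the lowest total among the docetaxel and vehicle libraries, and 70.5% of these lay on ribosomal RNA loci.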

Other observations

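Young L1Md LINEs took 0.260%, 0.253% and 4.88% of gene and TE counts in J2 libraries of docetaxel tumours 1, 2 and 3. In tumours given both drugs they took 0.581%, 6.38% and 2.06%, and in ORIN1001 tumours 0.221%, 0.225% and 0.113%. Vehicle tumours had 0.349%, 0.258% and 0.404%. The high value of docetaxel tumour 3 thus lay within the range of tumours given both drugs, and outside that of the other docetaxel tumours. These same J2 libraries had the highest shares of gene counts on ribosomal RNA loci. That share was 17.1% in docetaxel tumour 3 and 38.8%, 58.9% and 23.1% in tumours given both drugs. It was at most 6.18% in the other J2 libraries. Whether the L1Md share follows from library composition was not tested.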
